A study of Mus musculus with 8 samples.

Results

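The expression of 10 genes that build, coat and break down stored triglyceride was followed in hearts of WT and TAZG197V mice. The members were taken as a given list of symbols, Dgat1, Dgat2, Plin2, Plin5, Pnpla2, Abhd5, Lipe, Mgll, Lpl and Angptl4, and were 10 of the 55471 gene rows in each count table. All 10 passed the filter on low counts and were among the 15084 genes tested. RNA-seq had been performed on a small piece of heart from 4 WT and 4 TAZG197V mice, which the legend of the study gives as 14 weeks old, with neither genotype treated. TAZG197V mice are hemizygous males in which CRISPR/Cas9 changed 1 glycine of Tafazzin to valine. Tafazzin is a mitochondrial transacylase of cardiolipin, and the change copies a mutation of a patient with Barth syndrome. The founders were C57BL/6N and were crossed to C57BL/6J for 2 generations, and the edit is constitutive. The study bred the hemizygous males from heterozygous females and WT males. Whether the WT mice sequenced were littermates of the TAZG197V mice sequenced is not given in the sources used here. Nothing in the labels ties the numbers 1 to 4 to separate litters or dates. In the main fit, p-values measure the spread between these 4 libraries per genotype that remained after 2 surrogate variables were fitted. These covariates were estimated from the same libraries.

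Heart muscle takes up fatty acids that lipoprotein lipase frees from circulating lipoproteins at the capillary wall. Fatty acids that are not burned at once are esterified to triglyceride, the last step of which is carried out by the DGAT enzymes, and are kept in small lipid droplets coated by perilipins. Lipolysis then releases them in series, by adipose triglyceride lipase with its co-activator ABHD5, by hormone-sensitive lipase and by monoglyceride lipase. The released fatty acids feed the mitochondria and also act as ligands of the PPAR nuclear receptors, which raise transcription of several of these same genes.

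Levels were CPM, read counts scaled to library size after TMM normalisation, from libraries of 23055689 to 36301031 counts. Taz itself was measured at 63.8, 58.7, 61.9 and 59.3 CPM in WT 1 to WT 4 and at 48.0, 50.4, 46.3 and 44.3 CPM in TAZG197V 1 to TAZG197V 4 (log2 fold change −0.37, adjusted p = 0.00126, quasi-likelihood test of edgeR), but counts per gene do not read the edited base and so do not check the labels. The sum of 7 ventricular markers was 55890 to 62790 CPM across WT libraries and 46470 to 50750 CPM across TAZG197V libraries, so the labelled tissue was met in every library. Some libraries held more RNA of atrial, red cell or brain markers than others, and where it came from was not tested. WT 2 stood apart with 918.7 CPM of 4 atrial markers, WT 4 with 55070 CPM of 6 red cell markers, and WT 4 and TAZG197V 4 with 96.8 and 240.8 CPM of 5 brain markers, against at most 75.1, 1065 and 11.8 CPM in the other libraries.

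Lpl and Mgll fell and Abhd5 rose in TAZG197V hearts, while the remaining 7 members did not pass all parts of the call. Lpl and Abhd5 were called in 21 of 22 alternative analyses. Mgll, whose genotypes overlapped, was called in only 5 of them, and Plin5 in 10. A gene was called when its adjusted p was under 0.05, its log2 fold change lay beyond 0.20 on either side of 0 and its mean scaled count was at least 50. Of the 15084 genes tested, 33.4% were called, 18.5% higher and 15% lower in TAZG197V, and 3 of 10 members called was near that share. By adjusted p alone it was 4 of 10 members, against 38% of all genes tested. The median log2 fold change of the members was −0.04, against −0.01 over all genes tested. Libraries of the genotypes did not overlap for Abhd5, Plin5 and Lpl, 3 of 10 members, against 33.2% of all genes tested. Calls fell on both sides, and the genes are described here by the step each one serves.

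**Figure D1:**
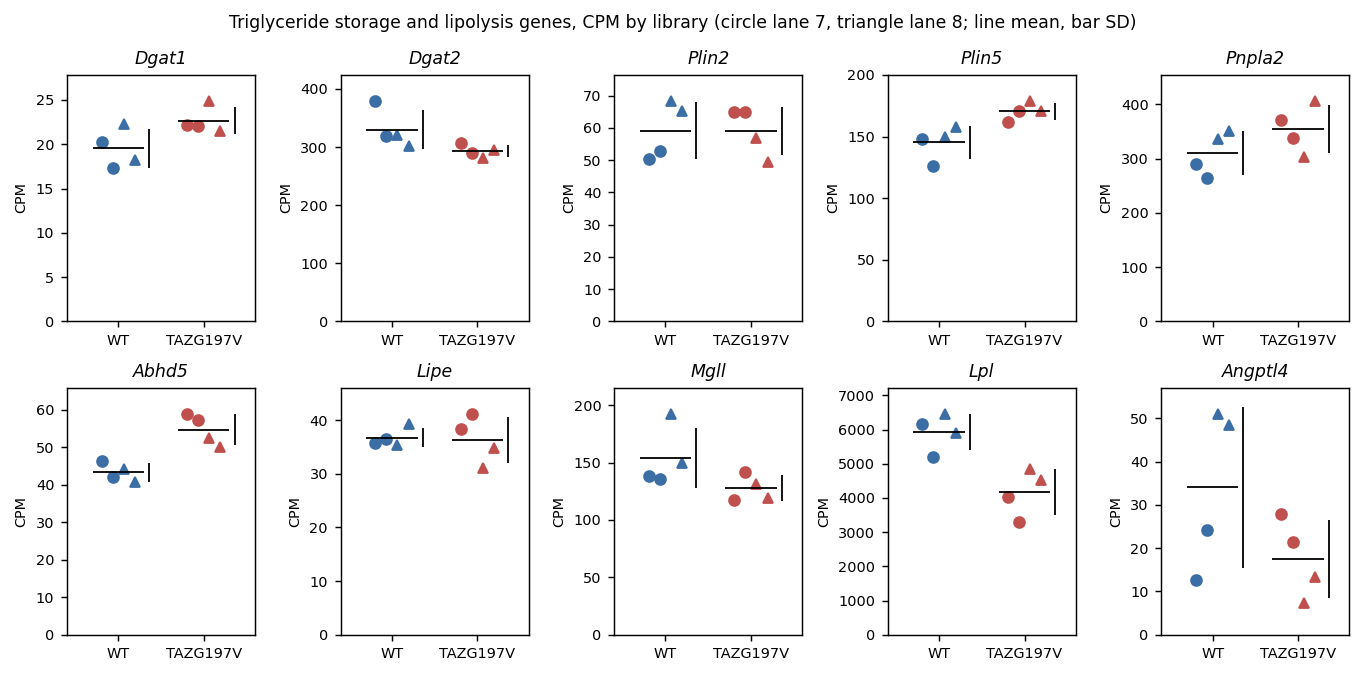
CPM of each member in each library, with a linear axis from 0 in every panel, circles for lane 7, triangles for lane 8, a horizontal line for the mean of 4 libraries and a vertical bar for 1 SD. Lpl, Abhd5 and Plin5 show no overlap between WT (blue) and TAZG197V (red), and Angptl4 shows the widest spread within each genotype.

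Per kilobase of exon, the members spanned a wide range of levels in WT hearts. Lpl led with 565.7 ± 50.7 CPM per kb (SD, n = 4), followed by Dgat2 with 107.0 ± 11.0 and Pnpla2, which encodes adipose triglyceride lipase, with 102.8 ± 13.6. The ranges of Dgat2 and Pnpla2 overlapped, so their order was not resolved. Plin5 followed with 69.6 ± 6.43 CPM per kb, Mgll with 30.3 ± 5.15 and Plin2 with 16.9 ± 2.55. The 4 lowest members, Angptl4 with 9.62, Abhd5 with 7.27, Dgat1 with 6.39 and Lipe with 6.24 CPM per kb, had ranges that overlapped with their neighbours. In TAZG197V hearts Lpl was still first, with 398.2 ± 64.4 CPM per kb. Pnpla2 then stood at 117.5 ± 14.6 and Dgat2 at 95.03 ± 3.43 CPM per kb, with ranges that no longer overlapped. Abhd5 at 9.18 ± 0.684 and Dgat1 at 7.41 ± 0.495 CPM per kb also had separate ranges in TAZG197V, and Angptl4 was last with 4.94 ± 2.54 CPM per kb, in a range that overlapped with that of Lipe. The co-activator gene Abhd5 was thus far below its lipase gene Pnpla2 per length in both genotypes, with a ratio of 0.0718 ± 0.0110 in WT and 0.0791 ± 0.0115 in TAZG197V. Lengths were those of all annotated exons of a gene, not of the transcripts expressed, so the order between genes is approximate.

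**Figure D2:**
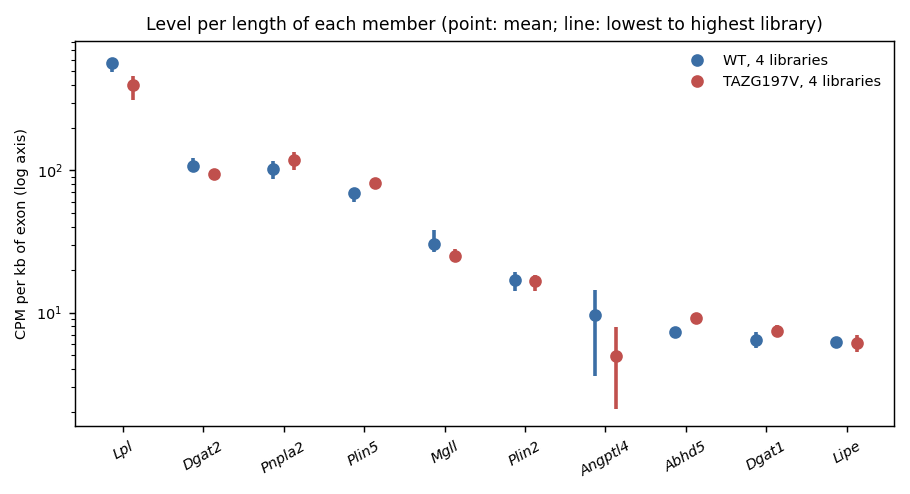
Mean CPM per kb of exon for each member on a log axis, with a line from the lowest to the highest of 4 libraries, WT in blue and TAZG197V in red. Lpl lies above all other members in both genotypes, at 565.7 CPM per kb in WT and 398.2 in TAZG197V.

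Lpl encodes lipoprotein lipase, which is made by cardiomyocytes and carried to the luminal face of the capillaries, where it hydrolyses the triglyceride of chylomicrons and very low density lipoproteins. The gene lies on the plus strand of chromosome 8, at 68880491 to 68907448 (GRCm38), and none of its exon bases were annotated to another gene. Lpl was measured at 6151, 5202, 6447 and 5908 CPM in WT 1 to WT 4 and at 4019, 3298, 4845 and 4527 CPM in TAZG197V 1 to TAZG197V 4. Every TAZG197V library was below every WT library, and TAZG197V 2 was the lowest of all. Mean Lpl fell from 5927 ± 531.1 to 4172 ± 674.6 CPM (SD, n = 4 each), which is 70.4% of WT, with a log2 fold change of −0.53 (standard error 0.131, 95% interval −0.83 to −0.23, adjusted p = 0.0138, edgeR).

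By mean CPM in WT, Lpl was number 18 of the 15084 genes tested. It took 0.538% to 0.616% of all counts in WT libraries and 0.337% to 0.494% in TAZG197V libraries. The size of its change was ordinary for these hearts, since 981 of the 2260 genes called lower (43.4%) changed more. Lpl was called in all 20 alternative analyses that used both sequencing lanes, with log2 fold changes from −0.64 to −0.45. Within lane 7 alone it was −0.63 (adjusted p = 0.0167) and within lane 8 alone −0.40 (adjusted p = 0.218).

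Some cell type markers were also lower in TAZG197V. Of 7 ventricular cardiomyocyte markers, 4 were called lower and 0 higher (median log2 fold change −0.32), and of 5 endothelial markers, 2 were called lower and 0 higher (median −0.32), with sums of 652.3 to 924.2 CPM in WT and 524.6 to 680.7 CPM in TAZG197V. Of 5 macrophage markers 0 were called (median 0.03, with 1 at an unadjusted p under 0.05, edgeR), and of 3 tested brain markers 1 was called higher (median 0.10). Of 5 fibroblast markers 3 were called lower (median −0.53), of 2 tested atrial markers both were (median −2.76), and of 6 red cell markers 4 were (median −3.52). The atrial and red cell sums were high in WT 2 and in WT 4, respectively, and the genotypes overlapped for every tested gene of these 2 lists. As a percentage of the summed ventricular markers, Lpl was 9.80, 9.26, 11.0 and 10.6 in WT 1 to WT 4 and 7.92, 7.10, 9.78 and 9.34 in TAZG197V 1 to TAZG197V 4. On that scale the genotypes overlapped, as for every other member but Dgat1, Abhd5 and Plin5. Those were apart, with TAZG197V and WT means of 0.0464 and 0.0335 for Dgat1, 0.112 and 0.0743 for Abhd5 and 0.35 and 0.2495 for Plin5. The summed markers were themselves lower in TAZG197V, which raises every member on this scale. Fewer cells of a type and less RNA per cell cannot be told apart in bulk RNA, and the part of these markers in the lower Lpl level was not tested.

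Angptl4 encodes a secreted inhibitor of lipoprotein lipase that fatty acids induce through PPARs in many tissues and that is raised by fasting. It lies on the minus strand of chromosome 17, at 33773750 to 33781830 (GRCm38). Angptl4 was measured at 12.7, 24.2, 51.0 and 48.4 CPM in WT 1 to WT 4 and at 27.9, 21.4, 7.45 and 13.3 CPM in TAZG197V 1 to TAZG197V 4. The genotypes overlapped, and the highest and lowest libraries differed 4.03-fold within WT and 3.74-fold within TAZG197V. The next widest range within a genotype was 1.47-fold, for Lpl in TAZG197V. The mean was 34.1 ± 18.7 CPM across WT libraries and 17.5 ± 8.98 CPM across TAZG197V libraries, with a log2 fold change of −1.02 (standard error 0.477, 95% interval −2.12 to 0.07, adjusted p = 0.125, edgeR).

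The direction of Angptl4 differed between the lanes. Libraries numbered 1 and 2 were sequenced in lane 7 and those numbered 3 and 4 in lane 8, as the names of the sequencing files show. Within lane 7 the log2 fold change was 0.41 (adjusted p = 0.270) and within lane 8 it was −2.27 (adjusted p = 0.0921), from 2 libraries per genotype in each. The test of the difference between lanes gave a log2 difference of −2.68 with adjusted p = 0.787 (edgeR), and 0 of all genes tested passed that adjustment although 939 had an unadjusted p under 0.05. Among known PPAR targets named after their values were seen, Ucp3, a mitochondrial uncoupling protein, was also lowest of its genotype in WT 1, with 62.7 CPM, and in TAZG197V 3, with 27.8 CPM. Pdk4, a kinase that restrains pyruvate oxidation, was likewise lowest in WT 1, with 592.7 CPM, and in TAZG197V 3, with 1055 CPM. What these libraries had in common was not tested.

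Dgat1 and Dgat2 encode unrelated enzymes that join the last fatty acid to diacylglycerol. Dgat2 lies on the minus strand of chromosome 7, at 99153658 to 99182719, and Dgat1 on the minus strand of chromosome 15, at 76502015 to 76511953 (GRCm38). Dgat1 was measured at 20.2, 17.3, 22.3 and 18.3 CPM in WT 1 to WT 4 and at 22.2, 22.0, 24.9 and 21.5 CPM in TAZG197V 1 to TAZG197V 4. Only WT 3 reached into the TAZG197V range, and the log2 fold change of 0.19 (standard error 0.0793, 95% interval 0.01 to 0.37) had an adjusted p of 0.0905 (edgeR).

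Dgat2 leaned the other way. It was measured at 379.2, 318.5, 320.7 and 301.3 CPM in WT 1 to WT 4 and at 306.5, 290.2, 281.0 and 294.2 CPM in TAZG197V 1 to TAZG197V 4, where WT 4 lay below TAZG197V 1. Its log2 fold change was −0.17 (standard error 0.0833, 95% interval −0.36 to 0.03, adjusted p = 0.151, edgeR). Neither enzyme gene was called. Per kilobase, the ratio of Dgat2 to Dgat1 was 18.6, 18.2, 14.2 and 16.4 in WT 1 to WT 4 and 13.7, 13.1, 11.2 and 13.5 in TAZG197V 1 to TAZG197V 4. The ratio was thus below every WT value in all 4 TAZG197V libraries, a description that was made after the values of both genes were seen and was given no test.

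Plin2 and Plin5 encode perilipins that sit on the droplet surface. Plin2 is found on droplets of most tissues, whereas Plin5 is the perilipin of oxidative tissues and ties droplets to mitochondria. Plin5 lies on the minus strand of chromosome 17, at 56111601 to 56117596, and Plin2 on the minus strand of chromosome 4, at 86648386 to 86670060 (GRCm38). Plin5 was measured at 148.2, 126.1, 149.5 and 157.4 CPM in WT 1 to WT 4 and at 161.6, 170.8, 178.9 and 171.0 CPM in TAZG197V 1 to TAZG197V 4. All TAZG197V libraries lay above all WT libraries. The mean was 145.3 ± 13.4 CPM across WT libraries and 170.6 ± 7.08 CPM across TAZG197V libraries, 117.4% of WT, with a log2 fold change of 0.20 (standard error 0.0540, 95% interval 0.08 to 0.33, adjusted p = 0.0196, edgeR).

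The adjusted p of Plin5 passed, and the gene missed the call because its log2 fold change of 0.2014 was just under the limit of 0.2016. It was called in 10 of 22 alternative analyses, so its place on either side of that limit was not settled. Plin2 was measured at 50.2, 53.0, 68.4 and 65.3 CPM in WT 1 to WT 4 and at 65.0, 64.8, 56.7 and 49.6 CPM in TAZG197V 1 to TAZG197V 4. The genotypes had nearly the same mean, 59.2 ± 8.94 and 59.0 ± 7.41 CPM, and the log2 fold change was −0.05 (standard error 0.101, 95% interval −0.28 to 0.18, adjusted p = 0.735, edgeR). That pooled value joined opposite directions, 0.33 within lane 7 (adjusted p = 0.0143) and −0.33 within lane 8 (adjusted p = 0.267). The difference between lanes was −0.66 (adjusted p = 0.787, edgeR). Plin2 and Angptl4 had the lowest adjusted p of that test among the members.

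Pnpla2 encodes adipose triglyceride lipase, the enzyme that removes the first fatty acid from triglyceride, and Abhd5 its co-activator, also known as CGI-58. Abhd5 lies on the plus strand of chromosome 9, at 122351608 to 122381524 (GRCm38). Abhd5 was measured at 46.3, 41.9, 44.3 and 40.8 CPM in WT 1 to WT 4 and at 58.8, 57.4, 52.4 and 50.1 CPM in TAZG197V 1 to TAZG197V 4. Every TAZG197V library was above every WT library. Mean Abhd5 rose from 43.3 ± 2.46 to 54.7 ± 4.07 CPM, 126.3% of WT, with a log2 fold change of 0.33 (standard error 0.0638, 95% interval 0.19 to 0.48, adjusted p = 0.00455, edgeR).

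Abhd5 was called in all 20 alternative analyses over both lanes, with log2 fold changes from 0.30 to 0.36, the narrowest span of the members. Within lane 7 the value was 0.40 (adjusted p = 0.00914) and within lane 8 it was 0.27 (adjusted p = 0.275). Among genes called higher, 73.7% changed more than Abhd5. An antisense gene, A730085K08Rik, overlapped 16.0% of the exon bases of Abhd5 and had 0 or 1 counts per library, while Abhd5 had at least 913.

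Pnpla2, on the plus strand of chromosome 7 at 141455198 to 141460743 (GRCm38), was measured at 289.5, 263.6, 336.8 and 351.8 CPM in WT 1 to WT 4 and at 371.5, 337.7, 303.5 and 406.4 CPM in TAZG197V 1 to TAZG197V 4. TAZG197V 2 and TAZG197V 3 lay within the WT range and TAZG197V 4 was the highest library of all. The log2 fold change was 0.16 (standard error 0.0827, 95% interval −0.03 to 0.35, adjusted p = 0.166, edgeR). A gain was called within lane 7, at 0.36 (adjusted p = 0.0303), but not within lane 8, at 0.04 (adjusted p = 0.919), and the difference between lanes had an adjusted p of 0.830 (edgeR).

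Lipe encodes hormone-sensitive lipase, which acts mainly on diacylglycerol, and Mgll encodes monoglyceride lipase, which frees the last fatty acid. Lipe lies on the minus strand of chromosome 7, at 25379527 to 25398710 (GRCm38), and was measured at 35.8, 36.6, 35.4 and 39.2 CPM in WT 1 to WT 4 and at 38.3, 41.1, 31.01 and 34.7 CPM in TAZG197V 1 to TAZG197V 4. The WT libraries lay inside the TAZG197V range. The log2 fold change was −0.02 (standard error 0.0960, 95% interval −0.24 to 0.20, adjusted p = 0.867, edgeR), and Lipe was called in none of the 22 alternative analyses. An antisense gene overlapped 15.6% of the exon bases of Lipe and had 11 to 22 counts per library, while Lipe had at least 878.

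Mgll lies on the plus strand of chromosome 6, at 88724412 to 88828360 (GRCm38), and was measured at 138.1, 135.8, 192.0 and 149.3 CPM in WT 1 to WT 4 and at 117.7, 142.1, 131.5 and 119.3 CPM in TAZG197V 1 to TAZG197V 4. WT 3 stood highest, and TAZG197V 2 lay above WT 1 and WT 2. Mean Mgll fell from 153.8 ± 26.1 to 127.6 ± 11.4 CPM, 83.0% of WT, with a log2 fold change of −0.30 (standard error 0.0983, 95% interval −0.52 to −0.07, adjusted p = 0.0432, edgeR). The call was the least secure of the members, since Mgll was called in 5 of 22 alternative analyses and in 1 of the 8 that left out 1 library. Its log2 fold change without 1 library ran from −0.39 to −0.16, with adjusted p from 0.0215 to 0.199. As a percentage of the summed ventricular markers, which were themselves lower in TAZG197V, Mgll was 0.264 ± 0.0470 in WT and 0.262 ± 0.0320 in TAZG197V.

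**Figure D3:**
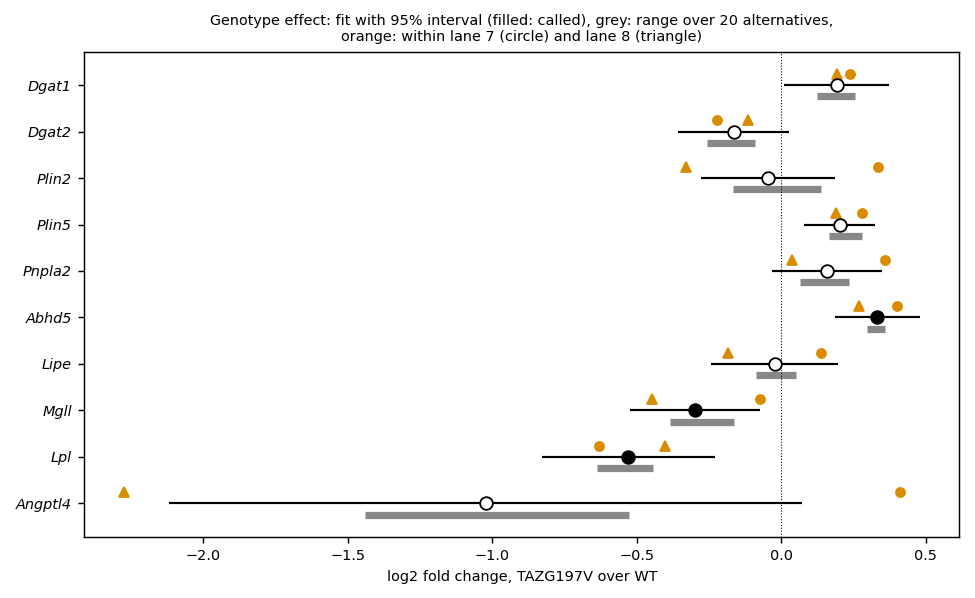
Log2 fold change of TAZG197V over WT for each member with its 95% interval (black, filled where called), the range over the 20 alternative analyses that used both lanes (grey) and the values within lane 7 (orange circles) and lane 8 (orange triangles). Lipe, Plin2 and Angptl4 lie on opposite sides of 0 in the lanes, and the other 7 members keep 1 direction throughout.

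The upstream sequences of the members were examined for a binding motif of the receptors that fatty acids activate. RefSeq upstream sequence on GRCm38.p6 was at hand for 6 of 10 members, namely Pnpla2, Abhd5, Lipe, Mgll, Plin2 and Plin5, and not for Dgat1, Dgat2, Lpl and Angptl4. The letters AGGTCA, the hexamer that PPAR and RXR receptors recognise, were searched on both strands of the 250 bases before each start and were found in 14.0% of 32851 promoters of the same length. Among the members, Abhd5, Plin5 and Plin2 held them, with the first base in the printed direction 69, 170 and 218 bases before the start, and Pnpla2, Lipe and Mgll did not in any start listed. Plin5 held it at 1 of its 2 listed starts. The sequences of these 3 members are shown because they hold the hexamer, and they cover a member that was called higher, a member at the limit of the call and a member that was not called. They are printed 5′ to 3′ on the strand of the gene, chr9:122351366-122351615 on the plus strand for Abhd5, chr17:56117549-56117798 on the minus strand for Plin5 and chr4:86670060-86670309 on the minus strand for Plin2. Capitals mark the hexamer, which reads TGACCT where it lies on the other strand.
Abhd5: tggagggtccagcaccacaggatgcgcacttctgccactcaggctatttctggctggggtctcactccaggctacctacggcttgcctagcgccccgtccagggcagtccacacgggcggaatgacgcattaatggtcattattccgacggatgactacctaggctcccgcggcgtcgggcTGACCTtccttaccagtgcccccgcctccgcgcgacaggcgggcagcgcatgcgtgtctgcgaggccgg
Plin5: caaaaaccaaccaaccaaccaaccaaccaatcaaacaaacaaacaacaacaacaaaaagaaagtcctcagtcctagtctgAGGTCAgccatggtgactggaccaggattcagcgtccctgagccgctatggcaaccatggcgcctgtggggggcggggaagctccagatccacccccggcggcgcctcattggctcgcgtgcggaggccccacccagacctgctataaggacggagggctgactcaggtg
Plin2: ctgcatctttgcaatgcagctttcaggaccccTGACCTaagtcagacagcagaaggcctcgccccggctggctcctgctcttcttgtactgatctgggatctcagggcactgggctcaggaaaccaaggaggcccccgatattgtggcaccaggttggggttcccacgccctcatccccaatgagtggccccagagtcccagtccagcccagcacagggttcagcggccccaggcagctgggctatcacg
A match of letters is a description of the sequence and no evidence of binding. The ATF4 composite element, TGATGNAA, which is found in 3.45% of all promoters, was in 0 of the 6 members.

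Adipose tissue expresses all of these genes, so its markers were read in every library. The sum of 6 genes that define adipocytes, Adipoq, Lep, Retn, Plin1, Cidec and Cfd, was 3.65, 21.8, 0.311 and 0.982 CPM in WT 1 to WT 4 and 0.182, 0.297, 0.194 and 3.81 CPM in TAZG197V 1 to TAZG197V 4. WT 2 stood apart in WT and TAZG197V 4 in TAZG197V. Adipoq, which encodes the adipocyte hormone adiponectin, reached 3.11 CPM in WT 2 and 0.587 CPM in TAZG197V 4, and had 0 counts in TAZG197V 1 and TAZG197V 3.

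The full list of 12 adipocyte markers had counts for 10 to 12 markers per WT library and 8 to 12 per TAZG197V library. Its sum was 468.5 to 619.5 CPM across WT libraries and 425.4 to 539.0 CPM across TAZG197V libraries. Of the 12 markers, 5 were tested, of which Adig was called higher and Car3 and Thrsp lower. Adig, which is not in the defining sum, had a mean of 0.74 ± 0.344 CPM in WT (SD, n = 4) and was measured at 7.12, 4.83, 5.65 and 3.48 CPM in TAZG197V 1 to TAZG197V 4 (log2 fold change 2.90, adjusted p = 0.000166, edgeR), without overlap and opposite to the lower defining sum of TAZG197V 1 to TAZG197V 3. Most of that sum was Fabp4, which endothelial cells also express and which made up 586.6 of the 619.5 CPM in WT 3 and 398.5 of the 468.5 CPM in WT 2. The defining sum was highest in WT 2 and lowest of the WT libraries in WT 3. WT 2 was not the highest library for any member, and its Lipe level of 36.6 CPM lay inside the range of the other WT libraries. WT 3 was the highest WT library for Dgat1, Plin2, Mgll, Lpl and Angptl4. In TAZG197V 4, Pnpla2 was the highest of all libraries, at 406.4 CPM, while Dgat1, Plin2 and Abhd5 were the lowest of their genotype. Without WT 2 and TAZG197V 4 together, Lpl had a log2 fold change of −0.64 (adjusted p = 0.0114) and Abhd5 of 0.31 (adjusted p = 0.0123, edgeR), both called. In that setting Mgll was no longer called, at −0.34 (adjusted p = 0.0769), and Dgat2 was called lower, at −0.26 (adjusted p = 0.0382, edgeR). With the defining sum as a covariate in place of the surrogate variables, the values were −0.54 for Lpl (adjusted p = 0.0221), 0.31 for Abhd5 (adjusted p = 0.0238) and −0.37 for Mgll (adjusted p = 0.0330), all called, and 0.17 for Plin5 (adjusted p = 0.104) and −1.25 for Angptl4 (adjusted p = 0.0998). Of 5 brown adipocyte markers, 3 were tested, of which Cidea was called higher and Slc36a2 and Cox7a1 lower, and the sum of the 5 ranged from 627.4 to 809.7 CPM in WT libraries and from 385.9 to 464.9 CPM in TAZG197V libraries. Nearly all of it was Cox7a1, a respiratory chain subunit of heart muscle too, at 575.2 to 752.4 CPM in WT libraries and 346.9 to 422.2 CPM in TAZG197V libraries. Ucp1, the defining gene of brown fat, ranged from 0 to 0.385 CPM. The part of these markers in the members' levels was not tested.

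**Figure D4:**
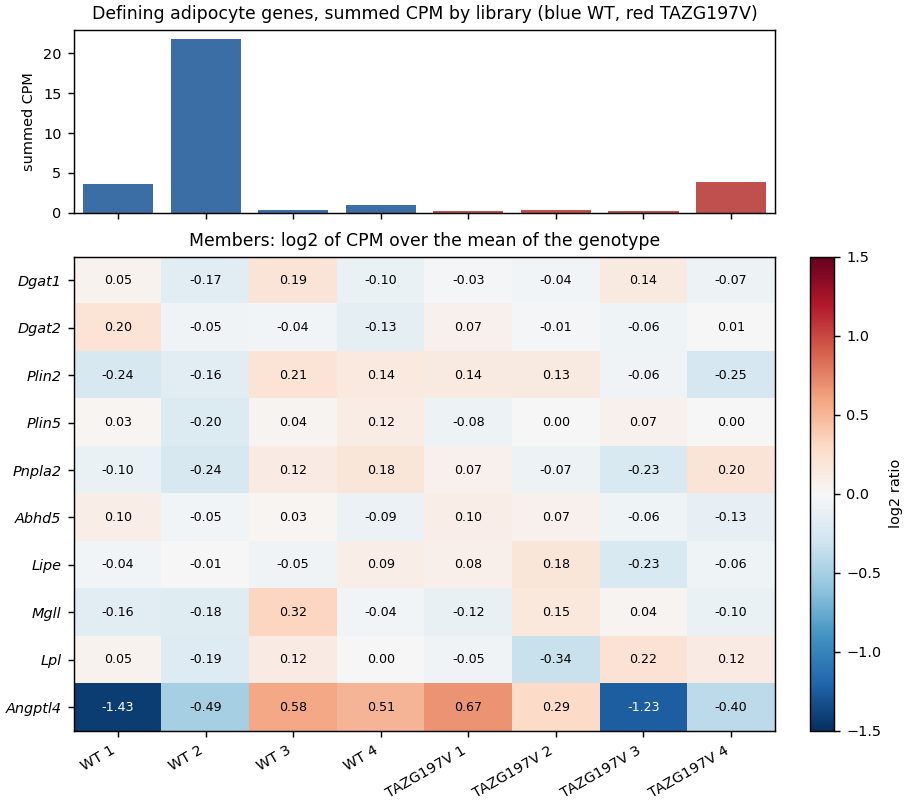
Upper panel, summed CPM of the 6 defining adipocyte genes in each library, with bars from 0. WT 2 at 21.8 CPM and TAZG197V 4 at 3.81 CPM are the highest bars of their genotypes. Lower panel, log2 of the CPM of each member in a library over the mean of its genotype. Angptl4 departs most, in WT 1 and TAZG197V 3.

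Other genes of the pathway were read from 4 lists, beside the 33.4% of all genes tested that were called (18.5% higher and 15% lower). Upstream of the DGAT enzymes, 12 of 14 genes of glycerolipid synthesis were tested, of which 3 rose, 3 fell and 6 were not called (median log2 fold change −0.09). Lpin1, a phosphatidate phosphatase that makes diacylglycerol, was measured at 248.8, 219.0, 237.7 and 312.1 CPM in WT and 110.1, 101.7, 100.0 and 105.0 CPM in TAZG197V, a log2 fold change of −1.32 (standard error 0.0717, adjusted p = 1.07e-05, edgeR). Gpat3, which encodes an enzyme of the first acylation step, rose from 11.6 to 15.8 CPM in WT to 26.04 to 29.1 CPM in TAZG197V (log2 fold change 1.00), with 28.9% of its 50-base windows also found in other genes, so that its count is uncertain. Agpat3 fell by a log2 fold change of −0.28. Mogat2, at 0.778 to 1.36 CPM in WT and 0.351 to 0.436 CPM in TAZG197V, was under the count minimum for a call.

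Of 19 further genes of the droplet coat and of lipolysis control, 17 were tested, of which 5 rose, 4 fell and 8 were not called (median −0.04). That is 9 of 17 called, against 33.4% of all genes tested. Ces1d, a carboxylesterase with triglyceride hydrolase activity, fell from 125.2, 107.4, 109.5 and 149.4 CPM in WT to 12.2, 13.8, 14.0 and 30.1 CPM in TAZG197V (log2 fold change −2.91, standard error 0.118, adjusted p = 2.12e-06, edgeR). Fitm1, a protein of droplet formation in muscle, fell from 65.2 to 85.6 CPM in WT to 33.1 to 36.4 CPM in TAZG197V (log2 fold change −1.08). Abhd6, a monoacylglycerol hydrolase, rose from 6.72 to 6.94 CPM in WT to 11.8 to 15.5 CPM in TAZG197V (log2 fold change 0.99). Pnpla3, at no more than 1.70 CPM in WT libraries and 0.477 CPM in TAZG197V libraries, was under the count minimum for a call.

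G0s2, which encodes the inhibitor of adipose triglyceride lipase, and Fitm2 were named after their values were seen. G0s2 was measured at 25.0, 23.1, 27.1 and 29.02 CPM in WT 1 to WT 4 and at 38.7, 45.9, 51.6 and 32.5 CPM in TAZG197V 1 to TAZG197V 4. It rose with a log2 fold change of 0.64 (standard error 0.103, adjusted p = 0.00202, edgeR) and without overlap. The co-activator Abhd5 and the inhibitor G0s2 of the same lipase were therefore both higher. Per kilobase, G0s2 over Abhd5 was 4.13 ± 0.539 in WT and 5.28 ± 1.07 in TAZG197V, and the genotypes overlapped on that ratio. Fitm2 fell by a log2 fold change of −0.54.

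Around lipoprotein lipase, 7 of 10 partner and uptake genes were tested, of which 1 rose, 2 fell and 4 were not called (median −0.13). That is 3 of 7 called, against 33.4% of all genes tested. Vldlr, a receptor that holds triglyceride-rich lipoproteins at the muscle, was measured at 523.2 to 557.5 CPM in WT and at 325.4 to 413.9 CPM in TAZG197V (log2 fold change −0.50, adjusted p = 0.00263, edgeR). Lrp1, a lipoprotein receptor of broad use, fell by a log2 fold change of −0.49 (adjusted p = 0.0160, edgeR). Sel1l and Lmf1 serve the folding and export of lipoprotein lipase in the endoplasmic reticulum. Sel1l rose with a log2 fold change of 0.22 (adjusted p = 0.0180, edgeR), and Lmf1 had −0.14 (adjusted p = 0.138, edgeR). The endothelial anchor Gpihbp1 and the fatty acid transporter Cd36, named after their values were seen, had log2 fold changes of 0.16 (adjusted p = 0.331) and −0.13 (adjusted p = 0.232, edgeR).

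All 15 genes of the list of PPAR regulators and other PPAR targets were tested, of which 2 rose, 4 fell and 9 were not called (median −0.09). Rxra, the partner receptor of PPARs, ranged from 71.8 to 82.2 CPM in WT libraries and from 47.8 to 54.7 CPM in TAZG197V libraries (log2 fold change −0.61, adjusted p = 0.000229, edgeR). Ehhadh, an enzyme of peroxisomal oxidation, fell by a log2 fold change of −0.83. Acot2, a mitochondrial acyl-CoA thioesterase, rose by 1.87 on the log2 scale and its paralog Acot1 fell by a log2 fold change of −1.30. Acot2 and Acot1 shared 27.7% and 19.2% of their 50-base windows with other genes, so their split is uncertain. Genes of this list were thus called in both directions, 6 of 15 in all, against 33.4% of all genes tested (18.5% higher and 15% lower).

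**Figure D5:**
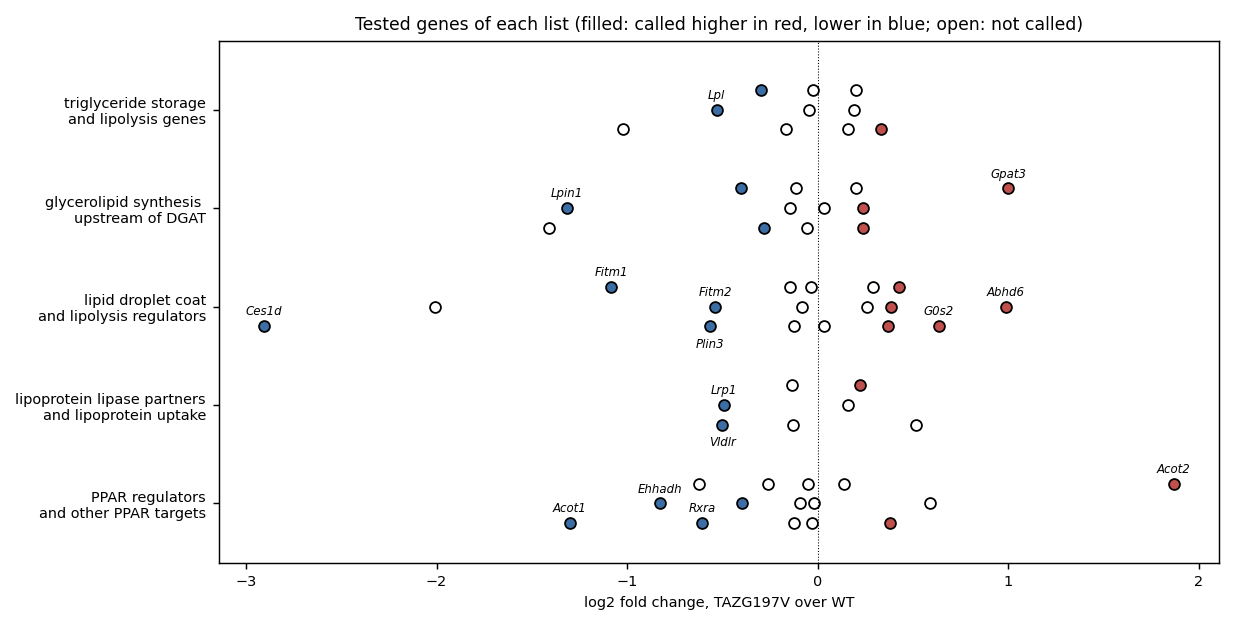
Log2 fold change of TAZG197V over WT of every tested gene in the 10 members and in the 4 other lists, filled red where called higher, filled blue where called lower and open where not called, with names for called genes of larger change. Every list holds called genes on both sides of 0, and Ces1d at −2.91 lies farthest out.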

How the data were processed

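The authors demultiplexed single-end reads of 50 bases with bcl2fastq 2.20.0, checked them with FastQC 0.11.9, aligned them to mm10 with STAR 2.7.3a allowing up to 2 mismatches, and counted reads on exons per gene with featureCounts (Subread 2.0.0). The deposited values are raw counts per Ensembl gene, not normalised, with 1 table per mouse. Which annotation release and strand setting were used, and how multi-mapping reads were treated, are not given in the sources used here, so reads of a gene and its antisense partner may not have been told apart. GENCODE M21 (GRCm38) gave symbols and positions and named 55230 of 55471 gene IDs, and 92 spike-in rows, at 0 counts in all, were left out.

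Counts were fitted in R 4.3.3 by edgeR 4.0.16 (quasi-likelihood F-test, two-sided) over the 15084 genes kept by filterByExpr, with TMM scaling and 2 surrogate variables from svaseq (sva 3.50.0, genotype protected, seed 1) as covariates. P-values were adjusted by Benjamini-Hochberg across every tested gene. Standard errors were the size of the log2 fold change over the square root of F. CPM are counts over the TMM-scaled library size, times 1000000, and CPM per kb are CPM over the summed exon length. The steps were tested on simulated data. Total counts were 23055689 to 36301031 per library, and counting error was not separated from the spread between mice. Replicates of a genotype differed by a chi-square of at least 10.2 per gene, so no library was counted as a repeat of another. The members and all lists were chosen with earlier results of these data known. The text names all members, Taz, up to 4 genes of each of the 4 other pathway lists with the smallest p, and genes of these lists that were called without overlap at a log2 fold change beyond 1. It also names cell type markers where a library or a marker sum is described, some of them chosen after their values were seen. Other genes outside the rule are marked where they appear. Alternatives were DESeq2 1.42.0, other covariates (none, 1 surrogate variable, lane, replicate number, adipocyte markers), DESeq2 size factors, no low-count filter, adjusted p alone, omission of libraries and fits within a lane. The covariate of 6 defining adipocyte genes, and the adipocyte marker score beside the surrogate variables, were chosen after seeing the data.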

Additional observations from a re-analysis of the deposited data

Results flagged for a closer look

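In groups of 4 libraries, a library was singled out when its gap to the nearest other library took a larger share of the whole range than Dixon's critical value at the 95% level. Of 40 groups examined, 9 were singled out, and chance alone gives about 1 in 20, or 2. None was a level of a member, and all were sums of marker genes. Defining adipocyte genes stood apart in WT 2 (gap 0.845 of the range) and in TAZG197V 4 (0.968). The list of 12 adipocyte markers was highest in WT 3 (0.857), where Fabp4 made up 586.6 of 619.5 CPM, endothelial markers were also highest (0.883) and the defining adipocyte genes were lowest of the WT libraries, at 0.311 CPM. WT 2 stood apart for atrial (0.921) and fibroblast markers (0.906), and WT 4 for red cell (0.987) and brain markers (0.991). TAZG197V 4 stood apart for brain markers (0.988). Fibroblast markers summed to 1252 CPM in WT 2 and to 502.9 to 797.8 CPM in the other libraries. Of these markers, 3 of 5 were called lower in TAZG197V, against 15% of all genes tested. Macrophage markers summed to 141.3 to 225.8 CPM over the 8 libraries, with 0 of 5 called (1 of 5 at an unadjusted p under 0.05, edgeR).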

How the results depend on the processing

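Counting error was not separated from the spread between mice, and it weighs most for the members with the fewest counts, Angptl4 (at least 231 per library) and Dgat1 (at least 409). Abhd5 and Lpl kept their call in 21 of 22 alternatives, the exception being the fit within lane 8, which had 2 libraries per genotype and called 45 genes in all against 5043. Within lane 8, 0 members were called higher and 0 lower, and 0, 0, 0 and 1 genes of the lists of glycerolipid synthesis, droplet coat, lipoprotein lipase partners and PPAR were called. Members called higher rose from 1 to 2 with 0 or 1 surrogate variable, lane, or the adipocyte score in place of surrogate variables, without the low-count filter and by adjusted p alone, to 3 without both number 4 libraries and within lane 7, and were 1 to 2 when 1 library was left out. Members called lower went from 2 to 1 with 0 or 1 surrogate variable, lane, no low-count filter, without both number 4 libraries, within lane 7 and with the adipocyte score beside the surrogate variables, and were 1 to 3 when 1 library was left out, with 3 without WT 1, where Angptl4 was called (log2 fold change −1.44, adjusted p = 0.0302). Mgll was no longer called in 17 of 22 alternatives, including without WT 2, WT 3, WT 4 or any 1 TAZG197V library. Genes called in glycerolipid synthesis went from 6 to 3 with the adipocyte score or the defining adipocyte genes in place of surrogate variables and from 3 to 6 when 1 library was left out, with 3 without WT 4. Lipoprotein lipase partners called went from 3 to 1 without TAZG197V 1 or without TAZG197V 2. The cause was not tested for any of these.

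Lipe and Plin2, not called, changed sign. Lipe was 0.0026 without the low-count filter, 0.0038 without WT 2 and TAZG197V 4, 0.033 without both number 4 libraries, 0.14 within lane 7 and −0.090 to 0.049 when 1 library was left out. Plin2 was 0.0015 with lane, 0.078 without the filter, 0.032 without WT 2 and TAZG197V 4, 0.14 without both number 4 libraries, 0.33 within lane 7 and −0.17 to 0.12 when 1 library was left out. Angptl4 was 0.41 within lane 7. With the replicate block, members called lower were 1, genes of glycerolipid synthesis called were 3 and Plin2 was 0.00056. Mgll was −0.26 with the block (adjusted p = 0.0985, edgeR) and not called. The labels do not say that a number marks a shared litter or day, and the numbers were not taken to pair the mice. Deviations of same-numbered libraries correlated at 0.278, 0.0436, 0.280 and 0.416 for numbers 1 to 4, and WT 1, WT 2 and WT 4 correlated best with their own number while WT 3 did not, a hint from the data that leaves pairing unsettled.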
